A study of Mus musculus with 4 samples.

Results

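The data concern 39 mouse genes of mitosis: the kinases and cyclins that start it, the spindle checkpoint, the kinetochore, the chromosomal passenger complex, the spindle and cytokinesis. They were chosen by name as a functional group, with no value of the table in the rule. Earlier results of these data were known when the choice was made. All 39 were found among the 37574 gene rows of the table, and all 39 were among the 16219 rows the authors tested.

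Cells that divide first copy their DNA and then build up the transcripts of the mitotic machinery through the second gap phase. Cyclin A and cyclin B activate the kinase Cdk1, kinetochores attach chromosomes to the spindle, and a checkpoint holds the anaphase-promoting complex, a ubiquitin ligase known as the APC/C, in check until every chromosome is attached. Many of these genes are switched on together by the MuvB complex with B-Myb and FoxM1, and are repressed in resting cells by MuvB within the DREAM complex. In stratified epithelia such as the oral mucosa, division is normally found in the basal and parabasal layers, and transcripts such as Mki67 serve as markers of dividing cells.

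The cells came from oral tumours of C57BL/6 mice that carried Bmi1CreER, a tamoxifen-inducible Cre driven by Bmi1, and a tdTomato reporter. All mice had received the carcinogen 4NQO for 26 weeks, and all tumours were taken 24 hours after tamoxifen. Tumours were digested with collagenase and dispase, and EpCAM-positive cells were sorted into a Tomato-negative and a Tomato-positive fraction, with 2 samples of each and 4 in all. EpCAM marks epithelial cells, and Tomato marks cells in which the Bmi1-driven Cre had acted. Nothing in the labels ties a sample to an animal, so the spread behind the p-values may be technical.

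The authors' table gives 1 FPKM value per gene and fraction (fragments per kilobase of transcript, scaled to the library total), a group value without SD, and a q-value from Cuffdiff. Values of single samples were not used here, and the depth is unknown. A gene is said to have risen where the authors' q was below 0.05, and every fold is Tomato-positive over Tomato-negative. Bmi1, the gene behind the label, had 3.11 FPKM in Tomato-negative cells and 7.03 FPKM in Tomato-positive ones (q = 0.00109, authors' deposited table). Epcam was listed at 25.1 and 46.4 FPKM, Krt5 at 1670 and 5176 FPKM and Krt14 at 2292 and 13864 FPKM, so defining epithelial markers were present in both fractions. Of the 7 epithelial markers 5 rose and 1 fell (summed level 4160 and 19292 FPKM). The one that fell was Krt8, a keratin of simple epithelia, from 4.76 to 0.201 FPKM (q = 0.00714, authors' deposited table), and Cdh1, E-cadherin, was listed at 96.3 and 85.3 FPKM and not called.

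Markers of other cells also moved between the fractions, and none of them was listed at 0 in either. Of all tested genes 14.2% were called lower and 13.0% higher, beside the counts that follow. Skeletal muscle markers fell in 9 of 10 (summed level 1734 and 125 FPKM, Tomato-negative first), and fibroblast and pericyte markers fell in 10 of 10 (764 and 213 FPKM). Macrophage and dendritic cell markers fell in 8 of 12 and rose in 1 (678 and 238 FPKM). The one that rose was Cd14, from 5.91 to 53.1 FPKM. T and NK cell markers fell in 3 of 9 tested (61.0 and 13.0 FPKM over all 11). Endothelial markers rose in 4 of 7 and fell in 1 (32.5 and 42.5 FPKM). The endothelial marker that fell was Cldn5, from 4.43 to 0.809 FPKM. Neutrophil markers rose in 5 of 8 tested and fell in 1 (1492 and 10978 FPKM over all 12, most of it S100a8 and S100a9, which keratinocytes can also make). Csf3r, the G-CSF receptor, rose from 0.637 to 17.1 FPKM, Retnlg from 0.856 to 19.2 FPKM and the chemokine receptor Cxcr2 from 3.13 to 5.51 FPKM, while Ltf, lactoferrin, fell from 40.9 to 2.67 FPKM (q = 0.000405 for Csf3r and Ltf, authors' deposited table). The untested Ly6g, Mpo, Elane and Ngp stood below 1 FPKM in both fractions. The part of these cells in the mitotic transcripts was not tested. In sorted bulk RNA, more dividing cells and more mitotic RNA per dividing cell cannot be told apart.

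Most of the mitotic genes rose in Tomato-positive cells, with 12 of the 39 not called. In the authors' deposited table, 27 of the 39 rose and 0 fell, against 13.0% of all tested genes called higher and 14.2% called lower by Cuffdiff. At an unadjusted p below 0.05, 31 were higher and 0 were lower, where 17.8% and 18.3% of all tested genes passed. As deposited, all 39 had the higher value in Tomato-positive cells, as 51.0% of all tested genes did, but Pttg1 differed by less (0.01 on the log2 scale) than the median of all tested genes (0.02), so its direction is not given. The 39 genes summed to 357 FPKM in Tomato-negative cells and 696 FPKM in Tomato-positive ones.

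Folds were moderate for most members and ran from 1.01 for Pttg1 to 3.43 for Ect2. Without a pseudocount, the median log2 fold was 1.19 for the 27 called members and 0.55 for the 12 not called. The median log2 fold, on log2(FPKM + 1), was 0.95 for the members and 0.01 for all tested genes. Folds of the 27 called genes ran from 1.74 for Prc1 to 3.43 for Ect2, with a median of 2.29. By log2 fold the members lay between percentiles 49.8 and 96.3 of all tested genes, with a median percentile of 90.5. The most abundant members in Tomato-positive cells were Top2a at 65.0 FPKM and Cdk1 at 64.3 FPKM, and the least abundant was Espl1 at 1.19 FPKM.

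**Figure D1:**
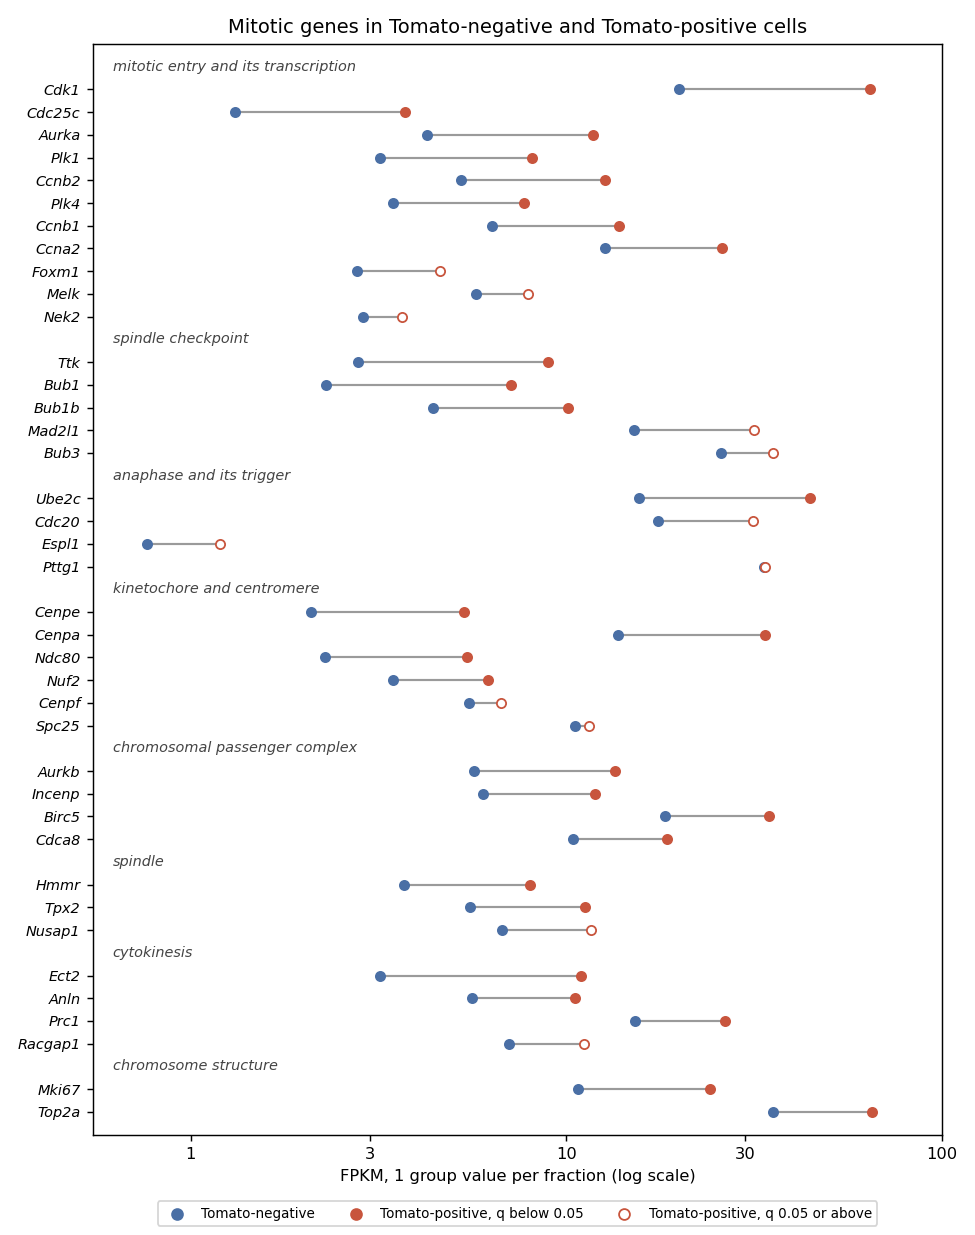
Levels of the 39 mitotic genes by role. Each line joins the authors' group FPKM in Tomato-negative (blue) and Tomato-positive (red) cells on a log axis; filled red points have q below 0.05 in the authors' deposited table (27 genes) and open ones do not (12 genes). No error is drawn, since the table holds 1 value per fraction. Every red point lies to the right of its blue point, and the Pttg1 points nearly coincide at 33.5 and 33.8 FPKM.

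**Figure D2:**
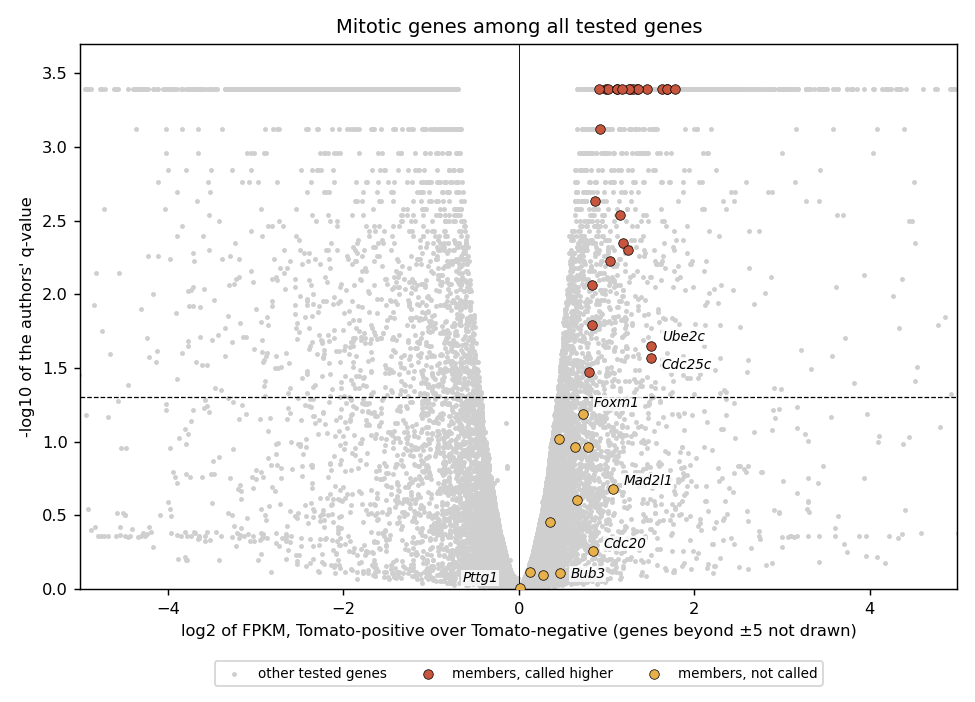
The mitotic genes among all tested genes. The x axis is the log2 of the FPKM ratio, Tomato-positive over Tomato-negative, and the y axis is -log10 of the authors' q-value; the dashed line is q = 0.05. The upper row of points is the lowest q of the table, 0.000405, which 16 of the 39 members share.

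The rise of genes known to be regulated together made their promoters worth showing. Promoters of mitotic genes are known for the cell cycle genes homology region (CHR), bound by MuvB, and for CCAAT boxes, bound by NF-Y. RefSeq promoters (GRCm38.p6, 250 bases before to 50 after the start of transcription, 300 in all) were at hand for 33 of the 39 genes. The other 6 were Incenp, Foxm1, Aurkb, Cdc25c, Ccna2 and Tpx2. The CHR was searched as TTTGAA or TTCGAA and the CCAAT box as CCAAT, on both strands. They can share a base, as in Cdca8. Below, capitals mark both motifs, also where they read as TTCAAA or ATTGG on the opposite strand. Cdk1, Ccnb2 and Plk1 are shown as genes that rose and hold a CHR, Cdc20 as one that holds a CHR but was not called, and Birc5 as one that rose with neither motif in this window. They lie at chr10:69352863-69353162 (minus strand), chr9:70421505-70421804 (minus), chr7:122159185-122159484 (plus), chr4:118437294-118437593 (minus) and chr11:117848987-117849286 (plus).
Cdk1: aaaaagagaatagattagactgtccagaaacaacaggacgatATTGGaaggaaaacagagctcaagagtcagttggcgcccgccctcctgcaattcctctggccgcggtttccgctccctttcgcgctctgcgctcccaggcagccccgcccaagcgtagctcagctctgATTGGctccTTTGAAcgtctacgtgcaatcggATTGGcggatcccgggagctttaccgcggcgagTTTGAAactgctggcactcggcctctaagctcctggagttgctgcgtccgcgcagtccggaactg
Ccnb2: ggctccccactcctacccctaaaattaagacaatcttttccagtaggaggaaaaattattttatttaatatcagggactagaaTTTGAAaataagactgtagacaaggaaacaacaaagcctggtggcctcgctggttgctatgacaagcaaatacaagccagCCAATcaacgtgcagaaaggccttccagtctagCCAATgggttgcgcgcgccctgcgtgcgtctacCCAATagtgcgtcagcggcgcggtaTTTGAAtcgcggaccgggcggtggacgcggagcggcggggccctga
Plk1: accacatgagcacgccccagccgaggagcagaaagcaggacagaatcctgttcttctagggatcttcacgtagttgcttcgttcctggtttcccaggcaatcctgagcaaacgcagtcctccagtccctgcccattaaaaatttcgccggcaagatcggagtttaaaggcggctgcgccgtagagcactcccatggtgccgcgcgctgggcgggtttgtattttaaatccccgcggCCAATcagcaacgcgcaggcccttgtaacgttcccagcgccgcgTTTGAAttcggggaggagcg
Cdc20: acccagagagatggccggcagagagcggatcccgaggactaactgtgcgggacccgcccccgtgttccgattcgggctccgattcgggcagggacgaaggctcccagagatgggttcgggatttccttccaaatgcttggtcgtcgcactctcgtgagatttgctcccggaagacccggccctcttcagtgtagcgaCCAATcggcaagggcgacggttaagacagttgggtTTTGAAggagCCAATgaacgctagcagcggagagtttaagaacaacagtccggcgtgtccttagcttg
Birc5: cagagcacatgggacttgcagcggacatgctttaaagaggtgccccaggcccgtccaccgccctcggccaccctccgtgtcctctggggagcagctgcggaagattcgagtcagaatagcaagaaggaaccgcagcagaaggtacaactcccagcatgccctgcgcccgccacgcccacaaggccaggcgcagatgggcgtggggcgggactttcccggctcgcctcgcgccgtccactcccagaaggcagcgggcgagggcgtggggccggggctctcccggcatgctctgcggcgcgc

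A CHR stood in the promoters of 23 of the 33 members (69.7%), against 21.7% of all 27025 genes with a promoter and 16.7% of the 9473 tested ones. A CCAAT box stood in 24 members (72.7%), against 41.1% of all genes and 42.6% of the tested ones. Both motifs together were found in 21 members (63.6%), against 8.61% and 7.01%. In the narrower window from 100 bases before to 50 after the start, all 23 of these members kept a CHR, while 9.87% of all genes and 6.71% of tested genes had one there.

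The distances in the printed promoters show the arrangement. Positions count from the start of transcription, negative upstream. Ccnb2 has CCAAT boxes at -87, -54 and -21, a CHR at 5 and another at -167. Cdk1 has boxes at -208, -80 and -48 and a CHR at -71 and at -15. Plk1 has a box at -14 and a CHR at 31. Cdc20, which was not called, has boxes at -53 and -8 around a CHR at -18. Among members that rose, 17 of 22 held a CHR, and among those not called, 6 of 11, a difference that was not tested. These matches are letters in a window, and binding was not measured.

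**Figure D3:**
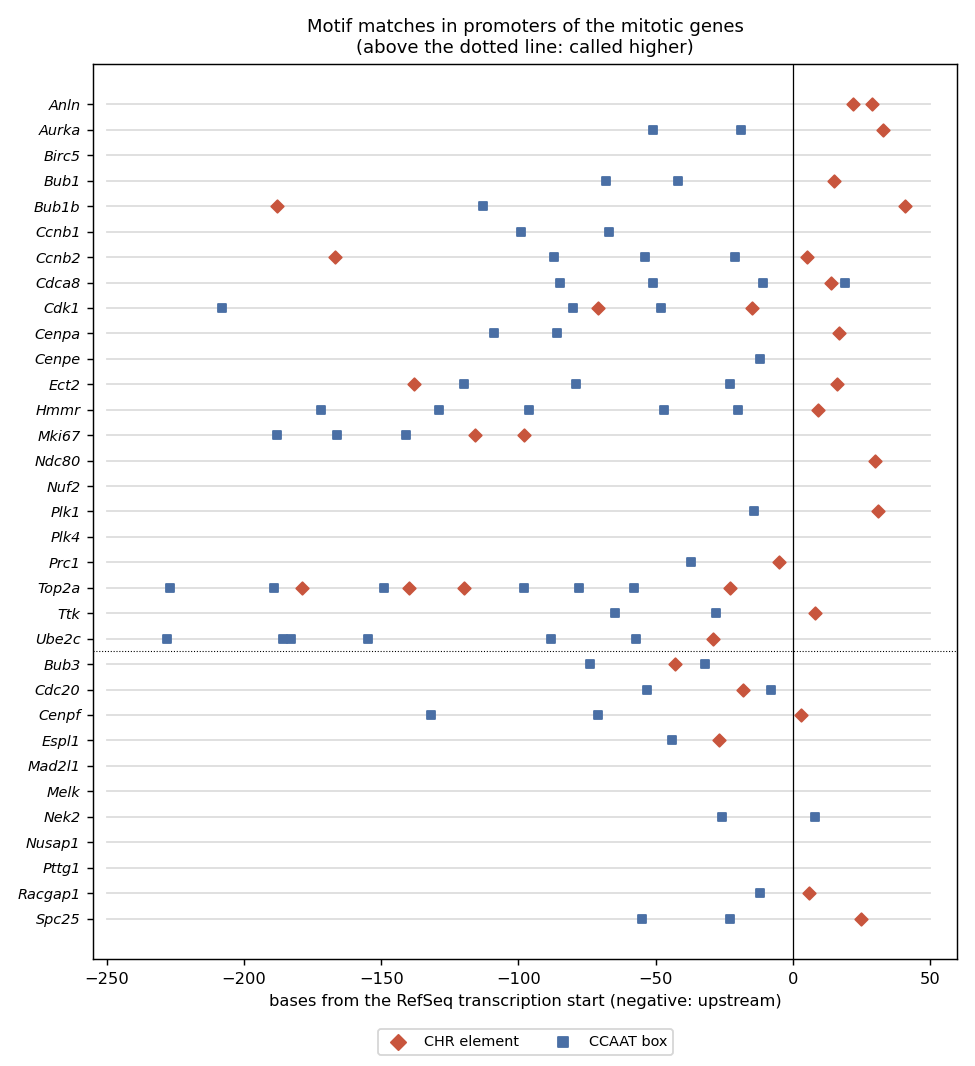
Motif matches in the promoters of the 33 members with a RefSeq promoter. The x axis is the distance in bases from the start of transcription, each row is a gene (for Bub3, Ect2 and Prc1, which have 2 entries, the one with the lower coordinate), diamonds are CHR matches and squares CCAAT boxes. Genes above the dotted line rose, and most CHR matches lie close to the start, with the CCAAT boxes mostly upstream of them.

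Genes grouped under mitotic entry and its transcription rose in 8 of 11. The share of all tested genes called higher, 13.0%, stands beside this and each role count below. Cdk1 (chromosome 10, 68799382 to 68815686, mm9), the kinase that drives entry into mitosis, was listed at 20.0 FPKM in Tomato-negative cells and 64.3 FPKM in Tomato-positive ones, a log2 fold of 1.69 (q = 0.000405, authors' deposited table). It had the highest level of this group in both fractions. Its partners rose less: Ccna2, cyclin A2, went from 12.7 to 26.0 FPKM, Ccnb1 from 6.35 to 13.8 FPKM and Ccnb2 from 5.24 to 12.7 FPKM. The ratio of Ccnb1 to Cdk1 was 0.318 in Tomato-negative cells and 0.215 in Tomato-positive ones, while that of Ccnb1 to Ccnb2 was 1.21 and 1.09. Whether Cdk1 and its cyclins differed in their folds was not tested.

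Of the other genes grouped under mitotic entry and its transcription, 4 rose and 3 were not called. Cdc25c, the phosphatase that removes the inhibitory phosphates from Cdk1, went from 1.31 to 3.72 FPKM (q = 0.0270, authors' deposited table). Aurka, Aurora A, which matures the centrosomes, rose from 4.27 to 11.8 FPKM, and Plk1, Polo-like kinase, from 3.19 to 8.11 FPKM. Plk4, grouped here although it starts the duplication of centrioles, rose from 3.45 to 7.70 FPKM. The members not called were Foxm1, a transcription factor of mitotic genes (2.77 and 4.60 FPKM, q = 0.0652), the kinase Melk (5.75 and 7.90 FPKM, q = 0.0957) and the centrosomal kinase Nek2 (2.87 and 3.66 FPKM, q = 0.351), with q as given in the authors' deposited table. Foxm1 was thus the member nearest to the threshold from above, and Prc1, with q = 0.0337, the nearest from below.

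Spindle checkpoint genes rose in 3 of 5, and Bub3 and Mad2l1 were not called. Ttk, the kinase Mps1 that starts the checkpoint, went from 2.78 to 8.95 FPKM, a log2 fold of 1.69. Bub1, which recruits checkpoint proteins to the kinetochore, rose from 2.29 to 7.11 FPKM (log2 fold 1.63). Both had q = 0.000405 in the authors' deposited table. Bub1b, BubR1, part of the inhibitor that holds the APC/C, rose from 4.42 to 10.1 FPKM. Mad2l1, Mad2 of the same inhibitor, was listed at 15.1 and 31.7 FPKM (q = 0.210, authors' deposited table). Its fold of 2.10 was no smaller than that of Ccna2 (2.05), which had q = 0.00594, so size alone did not set the calls. Bub3, which carries Bub1 and BubR1 to the kinetochore, was listed at 25.7 and 35.5 FPKM with q = 0.778. Its locus holds 41 other rows in the table, so its value is uncertain.

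Of the 4 genes of anaphase and its trigger 1 rose, where 13.0% of all tested genes did. Ube2c, the ubiquitin-conjugating enzyme of the APC/C, rose from 15.6 to 44.5 FPKM (q = 0.0225, authors' deposited table). Cdc20, the APC/C activator that the checkpoint binds, was listed at 17.6 and 31.5 FPKM with q = 0.553. Nuf2 and Cdca8 had nearly the same fold (1.79 and 1.78, beside 1.79 for Cdc20) and were called. Pttg1, securin, the inhibitor of separase, was listed at 33.5 and 33.8 FPKM, a log2 fold of 0.01 and the lowest of the 39. Espl1, separase, which cuts cohesin, was listed at 0.763 and 1.19 FPKM (q = 0.108, authors' deposited table).

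Kinetochore and centromere genes rose in 4 of 6. Cenpa, the histone H3 variant that marks the centromere, went from 13.7 to 33.9 FPKM, a log2 fold of 1.30 (q = 0.000405, authors' deposited table). Cenpe, the kinesin that moves chromosomes to the spindle equator, rose from 2.09 to 5.34 FPKM. The members of the NDC80 complex, which grips microtubules, did not all pass the test. Ndc80 rose from 2.28 to 5.43 FPKM and Nuf2 from 3.46 to 6.19 FPKM, whereas Spc25 was listed at 10.6 and 11.5 FPKM with q = 0.764 and its partner Spc24 at 5.09 and 7.39 FPKM (q = 0.250, authors' deposited table). The ratio of Ndc80 to Spc25 was 0.216 in Tomato-negative cells and 0.471 in Tomato-positive ones, a difference between genes that was not tested. Cenpf, a large protein of the outer kinetochore, was listed at 5.52 and 6.69 FPKM with q = 0.802.

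All 4 genes of the chromosomal passenger complex, which corrects wrong attachments and then moves to the spindle midzone, rose. Aurkb, its kinase Aurora B, went from 5.69 to 13.5 FPKM (q = 0.00499, authors' deposited table). Birc5, survivin, rose from 18.3 to 34.7 FPKM, Incenp, the scaffold, from 6.01 to 11.9 FPKM, and Cdca8, borealin, from 10.4 to 18.5 FPKM. The log2 folds lay between 0.83 and 1.25, and the ratio of Birc5 to Incenp was 3.05 in Tomato-negative cells and 2.91 in Tomato-positive ones.

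Of the spindle genes 2 of 3 rose. Tpx2, which activates Aurora A on the spindle, went from 5.55 to 11.2 FPKM and Hmmr, a spindle pole protein and hyaluronan receptor, from 3.69 to 8.02 FPKM. Both stood at q = 0.000405 by the authors' deposited table. Nusap1, which bundles spindle microtubules, was listed at 6.73 and 11.6 FPKM with q = 0.109, and shares its locus with Oip5 in the table.

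Genes of cytokinesis rose in 3 of 4, led by the largest fold of all 39. Ect2 (chromosome 3, 26996143 to 27052800, mm9), the exchange factor that activates RhoA at the division plane, went from 3.19 to 10.9 FPKM, a log2 fold of 1.78 (q = 0.000405, authors' deposited table). Anln, anillin, a scaffold of the contractile ring, rose from 5.61 to 10.6 FPKM and Prc1, which cross-links midzone microtubules, from 15.2 to 26.5 FPKM. Racgap1, which recruits Ect2 to the midzone, was listed at 7.05 and 11.2 FPKM with q = 0.251. Relative to Ect2, Racgap1 stood at a ratio of 2.21 in Tomato-negative cells and 1.02 in Tomato-positive ones.

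The chromosome genes Mki67 and Top2a both rose. Mki67, which coats mitotic chromosomes, went from 10.7 to 24.2 FPKM, a log2 fold of 1.17 (q = 0.000405, authors' deposited table). Top2a, the topoisomerase that untangles sister chromatids, rose from 35.5 to 65.0 FPKM with q = 0.00232.

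Overlapping genes limit part of these values. For 15 of the 39 members another row has the same locus in the table, such as Exosc9 for Ccna2, Tnnc2 for Ube2c and Elovl1 for Cdc20. This is not particular to the members, since 6802 of all 16219 tested rows share a locus with another row. The strand setting of the counting is not stated. Of the 24 members with a locus of their own 18 rose, and of the 15 others 9 did. Of all tested genes 13.0% were called higher, a share that was not split by locus sharing.

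Other genes of the mitotic pathway were also called in uneven shares, and whether these shares differed from that of the 39 was not tested. The shares of all tested genes, 13.0% called higher and 14.2% called lower, stand beside each list count below. Mitotic kinesins rose in 8 of 12 and fell in 0 (median log2 fold 0.80 on FPKM + 1), among them Kif18a from 1.55 to 4.33 FPKM, Kif20a from 3.61 to 8.76 FPKM and Kif22 from 4.19 to 9.74 FPKM. Checkpoint genes outside the 39 rose in 4 of 8 (median 0.53), with Trip13, which remodels Mad2, from 2.61 to 6.33 FPKM and Ccdc99, also called Spindly, from 2.94 to 6.78 FPKM. Cohesin and condensin genes rose in 9 of 20 (median 0.51). The largest rises there were those of the shugoshins Sgol1 (1.69 to 4.66 FPKM) and Sgol2 (2.06 to 4.61 FPKM), which protect cohesin at the centromere, and of the condensin gene Ncapd2 (4.30 to 7.90 FPKM). The ring genes Smc1a (30.9 and 32.5 FPKM) and Smc3 (15.5 and 15.5 FPKM) were not called.

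Regulators of Cdk1, phosphatases of mitotic exit and related genes went in several directions, with 6 of 15 higher and 1 lower (median 0.21). Cdc25b, a further activating phosphatase, rose from 9.26 to 29.4 FPKM, Ccnf from 2.36 to 6.12 FPKM and Mastl, the Greatwall kinase, from 1.65 to 3.84 FPKM. Cdc14b, a phosphatase, fell from 11.6 to 4.79 FPKM (q = 0.000405, authors' deposited table). The kinases that hold Cdk1 inactive, Wee1 (3.19 and 4.43 FPKM) and Pkmyt1 (4.09 and 4.53 FPKM), were not called, nor was the activating phosphatase Cdc25a (q = 0.974, authors' deposited table).

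Further spindle and centrosome genes rose in 7 of 21 and fell in 1 (median 0.36). Dlgap5, which stabilises spindle microtubules, went from 2.06 to 6.21 FPKM, the augmin gene Haus6 from 2.24 to 4.72 FPKM and Stil from 0.996 to 1.98 FPKM, and the centriole gene Cep152 fell from 2.04 to 1.22 FPKM. Further cytokinesis genes rose in 4 of 11 and fell in 1 (median 0.29). The septin Sept9 went from 17.4 to 48.1 FPKM, the abscission gene Cep55 from 4.09 to 9.52 FPKM and Arhgap11a from 2.80 to 4.77 FPKM, while Chmp4b of the abscission machinery fell from 203 to 141 FPKM.

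Kinetochore genes outside the 39 rose in 6 of 28 (median 0.48), or 21.4%, beside the 13.0% of all tested genes called higher. Casc5, the scaffold Knl1, went from 1.28 to 3.19 FPKM, Cenpw from 2.23 to 5.38 FPKM and F630043A04Rik, now Ska3, from 1.64 to 3.36 FPKM. Subunits and regulators of the APC/C rose in 1 of 16 (median 0.18), beside the 13.0% of all tested genes called higher. That gene was Ube2s, which extends ubiquitin chains, from 29.8 to 54.4 FPKM. The core subunit Anapc2 stood at 31.0 and 31.4 FPKM.

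Genes of the MuvB, B-Myb and E2F factors rose in 3 of 18 (median 0.23), a share near that of all tested genes. E2f7, a repressor, went from 1.44 to 3.73 FPKM, E2f8 from 5.10 to 7.42 FPKM and Tfdp1 from 20.3 to 29.4 FPKM. Mybl2, B-Myb, was listed at 1.73 and 3.49 FPKM (q = 0.116, authors' deposited table). S phase genes rose in 6 of 30 (median 0.26), or 20%, beside the 13.0% of all tested genes called higher, and 24 were not called. The largest rises there were those of Ccne1 from 5.62 to 14.4 FPKM, Mcm10 from 2.74 to 6.30 FPKM and Mcm5 from 12.2 to 23.0 FPKM.

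**Figure D4:**
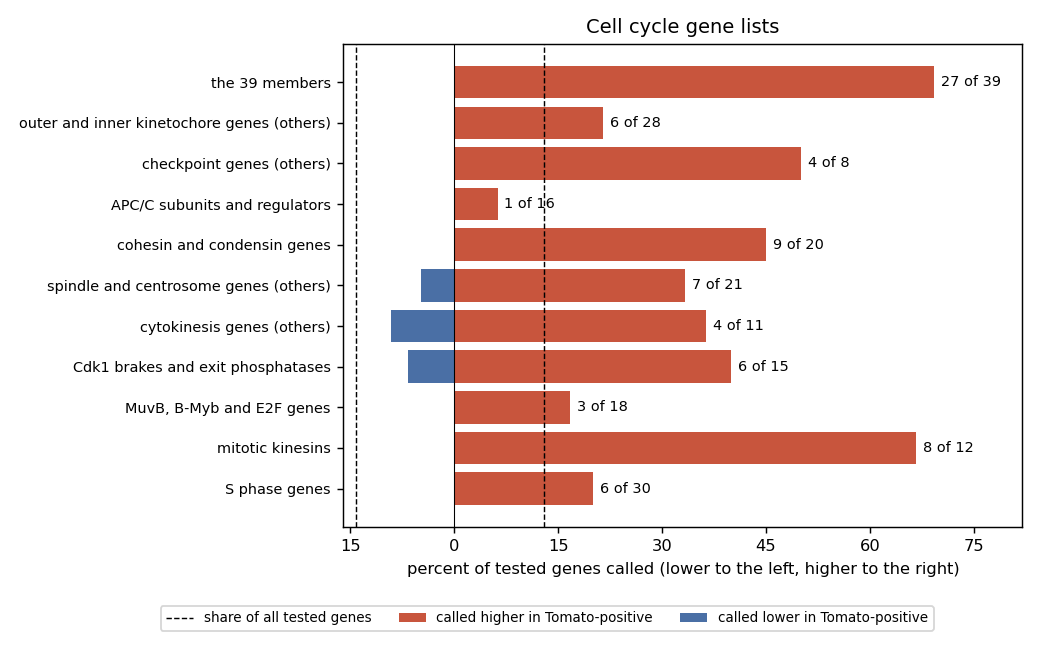
Share of tested genes called in each cell cycle list. Bars to the right give the percent higher and bars to the left the percent lower in Tomato-positive cells by the authors' q below 0.05, with the number called higher printed beside them; dashed lines are the shares of all tested genes, 13.0% and 14.2%. The 39 members (27 called higher) and the mitotic kinesins (8 of 12) have the longest bars, and the APC/C list (1 of 16) the shortest.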

How the data were processed

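RNA of 4 sorted samples, 2 Tomato-negative and 2 Tomato-positive, was purified on columns (RNeasy Micro) and libraries were prepared with a KAPA kit, per the labels' protocols. TopHat, Cuffdiff and the build mm9 are named in the submitters' processing notes. For versions, annotation and strand setting the sources used here give nothing. The deposited table holds 1 FPKM value per gene and fraction, joined over both samples by the authors, per the file headers. FPKM is relative to the library, so each value depends on the other genes. Each deposited p-value and q-value comes from the authors' test, per the file headers. The q-values matched a Benjamini-Hochberg adjustment of the p-values over the 16219 tested rows, and the lowest p-value, 5e-05, was shared by 2004 rows.

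Log2 folds were computed from FPKM, with a pseudocount of 1 FPKM for list medians. The deposited log2 fold and test statistic were not used. No per-sample value was used, so no SD, leave-one-out or paired value is given, and no test beyond that of the authors was run. Members and lists were chosen with earlier results of these data known. All members are named, and of the other lists up to 3 called genes with the largest fold in each direction. Some genes given as contrasts (Smc1a, Smc3, Wee1, Pkmyt1, Anapc2, Mybl2, Spc24, Cdc25a, Cdh1, Cxcr2, S100a9, Ly6g, Mpo, Elane and Ngp) and the promoters printed were chosen after their values were seen. List genes were matched by symbol or by Ensembl ID through GENCODE M21, which also named Sept9, whose symbol a spreadsheet had turned into a date. Locus coordinates are mm9 as deposited, and promoter coordinates are those of RefSeq, GRCm38.p6. The counting functions were tested on simulated data. Python 3.11.15, pandas 2.3.3, NumPy 2.4.6 and matplotlib 3.10.9 were used.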

Additional observations from a re-analysis of the deposited data

How the results depend on the processing

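The number of members that rose was 27 with the authors' q below 0.05. It was 23 at q below 0.01, 29 at q below 0.1, 20 with a difference of 2-fold or more and 26 where 5 FPKM or more in either fraction was required. 0 members fell under any of these. Of all tested genes, 13.0% were called higher at q below 0.05, and 7.11% when a difference of 2-fold or more was also required. The shares of all tested genes at the other settings were not counted. Centring the folds on the median of all tested genes, or rescaling without small RNA genes, leaves the authors' q as it is, so the count of 27 says nothing there. Calls lost at q below 0.01 were those of Cdc25c, Ube2c, Cdca8 and Prc1, and Foxm1 and Melk were gained at q below 0.1. The median log2 fold of the members, 0.95, lay between 0.91 and 1.03 under the other pseudocounts, filters and scalings. Centring moved all genes by 0.02 on the log2 scale. The fold of Pttg1, not called, is smaller than these shifts, so its sign (0.01 as deposited, -0.0040 when centred and -0.014 when rescaled) carries no information. Choosing the CHR letters TTTGAA alone, or the window near the start, each gave 69.4% of the 36 member promoters in place of 72.2%. These motif settings, the counts of the other lists at q below 0.01 and 0.1, and the count over loci not shared with another row were chosen after seeing the data. Of 68 such list counts 9 moved by more than 1.5 times.

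A Bonferroni adjustment was not run, since the lowest deposited p-value times the tested rows is 0.811. Leaving out replicates was not run. No paired analysis was possible because the table holds only group values, without a column for any replicate. Depth per sample is unknown.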

Other observations

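The CHR letters were also counted in promoters of all other tested genes. Outside the 39 members, a CHR stood in 17.0% of the 1245 genes called higher in Tomato-positive cells, in 17.4% of the 1546 called lower and in 16.2% of the 6649 not called. In the window from 100 bases before to 50 after the start the shares were 7.87%, 6.27% and 6.29%. These are descriptions without a test.

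The spacing of neighbouring CCAAT boxes was also counted. At least 2 boxes were found in 18 of the 33 members with a promoter (54.5%) and in 16.4% of tested genes. Among those with at least 2 boxes, neighbouring boxes lay 27 to 37 bases apart, first base to first base, in 10 of the 18 members (55.6%) and in 25.8% of the 1552 tested genes. The median gap was 33.5 bases in the members' promoters and 46 bases in those of tested genes. In Ccnb1, which rose and has no CHR match in this window, boxes stood at -99 and -67. The range of 27 to 37 bases was set after the members' gaps were seen, which favours the members, and no test was run. Promoters with more boxes, such as those of Top2a and Ube2c with 6 each, also have more gaps that can fall in the range. The number of boxes was not matched.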
